A study of Mus musculus with 6 samples.

Results

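Eph receptors and their membrane-bound ligands, the ephrins, were examined in mouse esophageal and stomach epithelial organoids. The 10 genes were taken by name, a choice made with earlier results of these data known: the A-class receptors *Epha1*, *Epha2* and *Epha4*, the B-class receptors *Ephb2*, *Ephb3*, *Ephb4* and *Ephb6*, and the ephrins *Efna1*, *Efnb1* and *Efnb2*. They were measured by 13 probes, out of 55681 distinct non-control probes under 34298 gene names on the array. *Ephb4*, *Ephb6* and *Efnb2* had 2 probes each and the other 7 genes had 1. Of the 13 probes, 11 were well above background on all 6 arrays by the scanner software's test, and the other 2, second probes of *Ephb6* and *Efnb2*, on none.

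The study asked how squamous esophageal and columnar stomach epithelium differ, and grew both as three-dimensional organoids in Matrigel from wild-type C57BL/6 mice. RNA of 6 cultures was hybridized to Agilent mouse expression arrays in 1 color, with 3 cultures of esophageal and 3 of stomach organoids. The labels give the mouse numbers 1, 2 and 4 in both tissues, and a shared number was read as the same animal, which they do not state outright. They name every culture Control and give no age for the mice. All cultures were at passage 0 and were harvested on day 8, except the stomach culture of mouse 4, which was harvested on day 7. The esophageal cultures started from dissociated single cells and the stomach cultures from isolated corpus glands. Both media held B27, N2, EGF, noggin, FGF-10, N-acetyl-L-cysteine, nicotinamide, TGF-β R kinase Inhibitor IV, the ROCK inhibitor Y-27632 and penicillin/streptomycin. Stomach medium also contained WNT3A, R-spondin1 and gastrin, and the esophageal medium held Forskolin and neither WNT3A nor R-spondin1. These are the media of the culture methods, and they were taken to be those of the array cultures, whose titles name no medium. The study also grew mouse esophageal organoids with WNT3A and R-spondin1. With the media so taken, tissue, starting material and medium cannot be told apart in any comparison given here.

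Eph receptors are the largest family of receptor tyrosine kinases, and their ligands stay attached to the neighboring cell, so the pair signals where cells touch. Ephrins of the A class are held to the membrane by a lipid anchor and mostly bind EphA receptors, whereas ephrins of the B class span the membrane and mostly bind EphB receptors. Binding can send a signal into the receptor cell and into the ephrin cell, and usually leads to repulsion, sorting or altered adhesion of the cells. In the gut, EphB receptors and B-class ephrins are known for keeping proliferating and differentiated epithelial cells in separate positions, with *Ephb2* and *Ephb3* known there as targets of WNT/β-catenin signaling.

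The tissue labels were checked against markers. *Krt5*, a keratin of basal squamous cells, had log2 levels of 17.07 to 17.08 in esophageal and 4.85 to 5.39 in stomach organoids, and *Krt8*, a keratin of columnar cells, had 5.21 to 5.83 and 16.65 to 16.88. All 12 columnar markers were higher in stomach organoids and 9 of 10 squamous markers were higher in esophageal organoids (adjusted p under 0.05 in limma). The exception was the brightest probe of *Trp63*, which was itself called higher in stomach organoids (mean 11.20, against 9.99 in esophageal organoids, adjusted p = 0.0249 in limma). The other 3 probes of *Trp63* were called higher in esophageal organoids. Of 8 fibroblast markers, none was well above background throughout a tissue, and their summed linear level was 218 to 256 in esophageal and 259 to 270 in stomach organoids. Of 5 smooth muscle markers none was called, and the summed level was 490 to 1494 in esophageal and 538 to 1837 in stomach organoids. *Tagln* (8.55 to 10.41 in esophageal and 8.76 to 10.76 in stomach organoids) was well above background on all 6 arrays. *Acta2* also counted as such, by a rule that any of its 10 spots sufficed on an array. Its levels were only 4.93, 6.69 and 4.97 in esophageal and 4.95, 4.74 and 4.96 in stomach organoids. Of 6 endothelial markers none was called, *Cdh5* and *Emcn* were well above background on no array, *Kdr* (8.44 to 9.12 in esophageal and 8.52 to 8.76 in stomach organoids) and *Pecam1* (5.80 to 5.99 and 5.94 to 6.37) on all 6, and the summed level was 518 to 730 and 578 to 597. Of 7 immune markers, *Ptprc* and *Adgre1* were well above background on no array, whereas *Cd68* (11.80 to 14.77 in esophageal and 11.04 to 12.36 in stomach organoids), *Csf1r* (7.78 to 8.03 and 7.97 to 8.35), *Cd3e* (7.23 to 7.55 and 7.35 to 8.34) and *Itgam* (10.47 to 11.18 and 12.96 to 13.83) were on all 6. Of these *Itgam* was called, higher in stomach organoids, and the immune markers' summed linear level was 5557 to 30877 in esophageal and 12276 to 17577 in stomach organoids. Of 6 neural markers, *Tubb3* and *Elavl4* were higher in esophageal organoids, *Sox10* was well above background on no array, and the summed level was 7448 to 14737 in esophageal and 12331 to 35652 in stomach organoids. The part of any other cell type in the Eph and ephrin values was not tested beyond these levels, and since the RNA came from whole cultures, fewer cells of a type and less RNA per cell cannot be told apart.

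The sequence of the probes matters for 2 genes of the family. The only probe of *Ephb3* and the brightest probe of *Epha5*, a receptor outside the 10 genes, hold an unbroken alternation of T and G, which is 33 bases long in the *Ephb3* probe (bases 28 to 60 of 60) and 20 bases long in the *Epha5* probe (bases 32 to 51 of 60). The stretch where the alternation begins is shown for both, with the alternating bases in capitals; it covers bases 18 to 47 of the *Ephb3* probe and bases 22 to 51 of the *Epha5* probe.
Ephb3 probe: agccagagacTGTGTGTGTGTGTGTGTGTG
Epha5 probe: acatcgaaatTGTGTGTGTGTGTGTGTGTG
In the coordinates of the array files (mouse build mm9) the *Ephb3* probe lies at chr16:21223165-21223224 on the plus strand and the *Epha5* probe at chr5:84487348-84487407 on the minus strand. No other member probe had such a run of more than 6 bases.

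The proximal promoters of the 2 genes whose difference held under every processing tried, *Ephb6* and *Efnb1*, were set beside each other because they differ in their GC boxes. The 250 bases before the start site are shown 5′ to 3′ from RefSeq (build GRCm38.p6), with each GC box (GGGCGG, either strand) in capitals. The *Ephb6* sequence is chr6:41605261-41605510 on the plus strand and the *Efnb1* sequence is chrX:99135811-99136060 on the plus strand.
Ephb6 promoter: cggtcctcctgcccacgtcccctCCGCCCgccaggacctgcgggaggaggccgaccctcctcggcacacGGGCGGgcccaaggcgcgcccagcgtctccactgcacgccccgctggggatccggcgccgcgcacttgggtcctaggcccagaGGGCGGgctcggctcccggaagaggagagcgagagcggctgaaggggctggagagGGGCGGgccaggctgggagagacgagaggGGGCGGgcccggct
Efnb1 promoter: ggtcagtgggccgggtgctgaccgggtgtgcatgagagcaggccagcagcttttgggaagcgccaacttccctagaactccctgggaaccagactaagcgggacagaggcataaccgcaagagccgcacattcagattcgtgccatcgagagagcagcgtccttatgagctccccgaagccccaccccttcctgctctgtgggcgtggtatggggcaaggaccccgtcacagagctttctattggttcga
*Ephb6* held 5 GC boxes and *Efnb1* none. RefSeq gave 11 promoters for the 10 genes, of which 9 held a GC box, against 32.7% of 32851 mouse promoters of the same length. Their GC content was 54.4% to 76.8%, against a median of 52.4%. The TCF/LEF motif CTTTGAT was in none of the 11 (3.21% of all promoters) and the AP-1 motif TGANTCA in none (6.75%), which says only that these letters are not in these windows.

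Of the 10 genes, 5 were higher on the esophageal side and 0 on the stomach side at an adjusted p under 0.05 in limma. Of all gene names, by brightest probe, 7.15% were called on the esophageal side and 7.7% on the stomach side. By probe, 6 of 13 were higher in esophageal organoids, where 5.94% of all probes were, and 0 of 13 in stomach organoids, where 6.22% of all probes were (12.2% in either direction). Among the 21416 probes well above background on all 6 arrays, the shares were 10.7% and 9.68%. At the threshold of the study's methods, an unadjusted p under 0.05 and a change of 1.5-fold, 7 member probes were higher in esophageal organoids, against 9.28% of all probes, and 3 in stomach organoids, against 8.85%. Without the fold limit, at an unadjusted p under 0.05 in limma, 7 member probes were higher in esophageal organoids, against 12.5% of all probes, and 4 in stomach organoids, against 11.3%, 1 of the 4 being the *Ephb6* probe that was well above background on no array. Values of all 3 esophageal arrays lay above all 3 stomach arrays for 7 member probes (15.2% of all probes) and below them for 3 (13.4%), and the remaining 3 overlapped. The median log2 difference of the 10 genes, esophagus minus stomach, was 0.86, against 0.03 over all gene names. Leaving out the esophageal array of mouse 2 or the stomach array of mouse 1 lowered the 6 calls to 2 in each case, and leaving out the stomach array of mouse 2 lowered the 5 genes to 3. Without the stomach array of mouse 1 or of mouse 4, 1 member probe was called higher in stomach organoids, *Ephb2* in the first case and *Efna1* in the second.

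**Figure D1:**
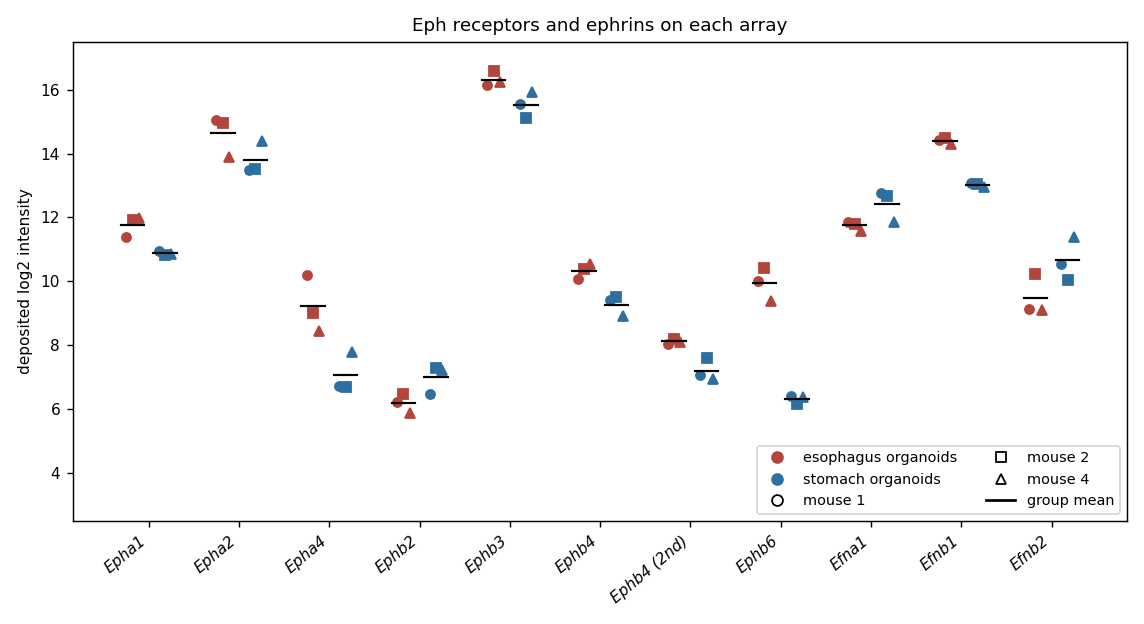
Deposited log2 intensity of the 11 member probes well above background on 6 of 6 arrays, for each esophageal (red) and stomach (blue) array, with the mouse as the marker shape and the group mean as a line; levels of different probes are not comparable. The *Ephb6* values of the tissues lie farthest apart, between 9.38 and 10.42 in esophagus and between 6.14 and 6.41 in stomach, and the *Epha2* and *Efnb2* values overlap.

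*Epha4* was the A-class receptor with the widest difference. This receptor binds ephrins of both classes. Its log2 level was 10.19, 9.004 and 8.45 in the esophageal organoids of mice 1, 2 and 4 and 6.72, 6.68 and 7.80 in their stomach organoids. The groups did not overlap, but the stomach array of mouse 4 was the highest stomach value and the esophageal array of mouse 4 the lowest esophageal value. The difference was 2.15 ± 0.47 (SE, n = 3 per tissue), or 4.44-fold, with a 95% interval of 1.05 to 3.25 and an adjusted p of 0.0234 in limma. With the mouse as a block, the adjusted p was 0.0512. It was 0.0588 without the esophageal array of mouse 2, 0.105 without the stomach array of mouse 1 and 0.105 without the stomach array of mouse 2, within a range of 0.0121 to 0.105 over all alternatives. The probe lies at chr1:77364339-77364398, minus strand (mm9; RefSeq transcript NM_007936).

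*Epha1*, the receptor after which the family was named, was 11.39, 11.92 and 11.98 on the esophageal arrays of mice 1, 2 and 4 and 10.93, 10.82 and 10.87 on the stomach arrays. All esophageal values were above all stomach values, and the stomach arrays agreed closely (SD 0.06, against 0.32 in esophagus). The difference was 0.89 ± 0.19, or 1.85-fold (95% interval 0.45 to 1.33; adjusted p = 0.0200 in limma). The adjusted p rose to 0.0728 without the esophageal array of mouse 2, 0.0536 without that of mouse 4, 0.0727 without the stomach array of mouse 1 and 0.0847 without that of mouse 2, which was also the highest over all alternatives, the lowest being 0.00503. Its probe is at chr6:42308583-42308642, minus strand (NM_023580).

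*Epha2*, an epithelial receptor for ephrin-A1, did not pass the test. Its levels were 15.06, 14.95 and 13.89 in esophageal organoids and 13.49, 13.51 and 14.40 in stomach organoids. The order was reversed in mouse 4, whose stomach value exceeded its esophageal value by 0.51, whereas in mice 1 and 2 the esophageal value exceeded the stomach value by 1.57 and 1.44. The mean difference was 0.83 ± 0.37 (95% interval -0.03 to 1.69; adjusted p = 0.223 in limma). Leaving out the esophageal array of mouse 4, the only array on a second slide, gave a difference of 1.21 with an adjusted p of 0.0460, the lowest of the alternatives, the highest being 0.495. The probe lies at chr4:140885139-140885198, plus strand (NM_010139).

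Among the B-class receptors, *Ephb6* had the widest difference of all members. EphB6 lacks kinase activity of its own and takes part in signaling through other Eph receptors. The bright probe read 9.997, 10.42 and 9.38 on the esophageal arrays and 6.41, 6.14 and 6.39 on the stomach arrays. The esophageal arrays varied by about 1 log2 unit among themselves, while the lowest of them stayed 2.97 above the highest stomach array. The difference was 3.62 ± 0.26, or 12.3-fold (95% interval 3.01 to 4.22; adjusted p = 7.3e-05 in limma). The adjusted p stayed at or below 0.00112 under all 15 alternatives. This probe is at chr6:41570442-41570501, plus strand (NM_001146351). A second probe for the same transcript, at chr6:41564657-41564716, was well above background on 0 of 6 arrays, and no fold is given for it; its levels were 4.50 to 4.88 in esophageal organoids and 5.04 to 5.36 in stomach organoids. Averaging both probes lowered the difference to 1.60.

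*Ephb4*, best known as the receptor of ephrin-B2 on venous endothelium and also present in epithelia, was measured by 2 probes that gave the same direction. The brighter one read 10.06, 10.38 and 10.55 in esophageal organoids and 9.40, 9.50 and 8.91 in stomach organoids. The second read 8.04, 8.20 and 8.11, against 7.08, 7.60 and 6.93. Neither overlapped between tissues, and on both the stomach array of mouse 4 was the lowest of the 6. The differences were 1.06 ± 0.21 (2.08-fold; adjusted p = 0.0155 in limma) and 0.91 ± 0.20 (1.88-fold; adjusted p = 0.0220). The brighter probe missed the threshold without the esophageal array of mouse 2 (adjusted p = 0.0559, the highest of the alternatives, the lowest being 0.0139) and without the stomach array of mouse 1 (0.0505). The second missed it without the esophageal array of mouse 2 (0.0755) or 4 (0.0501) and without the stomach array of mouse 1 (0.101) or 4 (0.0502), within a range of 0.0106 to 0.135. The endothelial markers *Cdh5* and *Emcn* were well above background on 0 of 6 arrays, while *Kdr* and *Pecam1* were on all 6, with no call between tissues. The probes lie at chr5:137815646-137815705 and chr5:137813703-137813762, both on the plus strand (NM_001159571).

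*Ephb3*, known for positioning cells along intestinal crypts, read 16.14, 16.58 and 16.22 in esophageal organoids and 15.55, 15.12 and 15.94 in stomach organoids. The esophageal values were all higher, the closest arrays being esophagus of mouse 1 and stomach of mouse 4. The difference of 0.78 ± 0.24 (95% interval 0.23 to 1.33) had an adjusted p of 0.0777 in limma. Without the stomach array of mouse 4 it was 0.98 with an adjusted p of 0.0287, the lowest of the alternatives, and the highest was 0.229. These values come from the probe with the 33-base T and G alternation shown above. All 52 probes on the array with such a run of 20 bases or more had a mean log2 level of 11.81 to 17.06, with a median of 15.89, against a median of 5.31 for the 55261 probes with runs of at most 7 bases. All 52 were higher on average in esophageal organoids, by 0.25 to 1.32 with a median of 0.69, and 15 were called. *Ephb3* was 1 of these 52 probes, so its level and difference lie within their ranges by construction, and nothing is read from that. The part of the run in the *Ephb3* value was not tested, and no other probe of *Ephb3* was on the array.

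**Figure D2:**
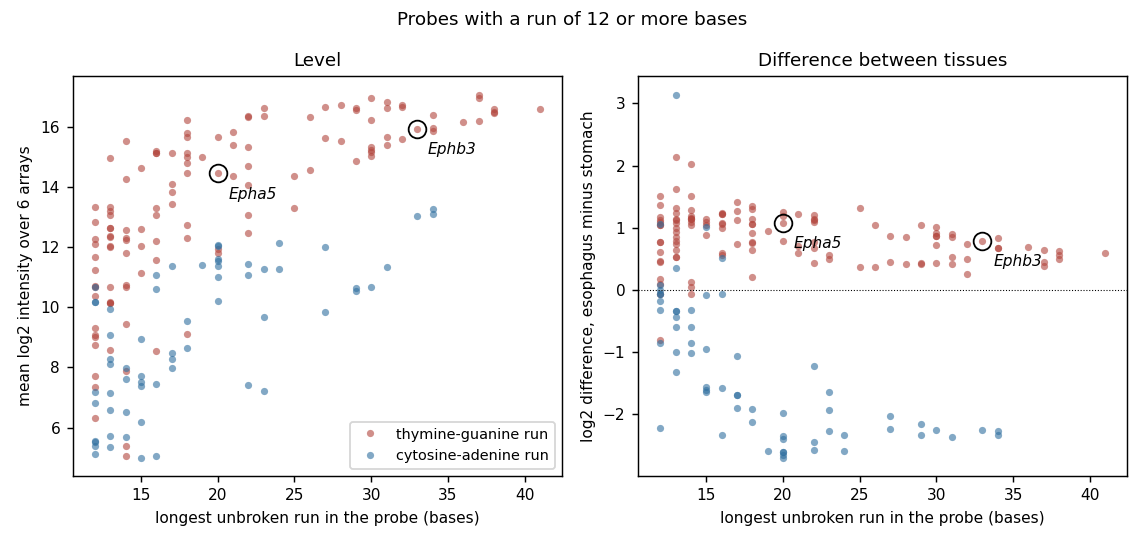
Mean log2 intensity over the 6 arrays (left) and log2 difference, esophagus minus stomach (right), of every probe with an unbroken thymine-guanine (red) or cytosine-adenine (blue) run of 12 or more bases, by the length of the run; *Ephb3* and *Epha5* are circled. All 52 probes with thymine-guanine runs of 20 or more bases are above 0 on the right, and the 24 with cytosine-adenine runs of that length are all below 0.

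*Ephb2*, the other crypt receptor, was the only member receptor with a higher mean in stomach organoids. It read 6.23, 6.46 and 5.86 in esophageal organoids and 6.48, 7.28 and 7.23 in stomach organoids. The lowest stomach value, of mouse 1, lay 0.02 above the highest esophageal value, of mouse 2. The difference of -0.82 ± 0.26 (95% interval -1.42 to -0.21) had an adjusted p of 0.0928 in limma, and 0.0368 without the stomach array of mouse 1, within a range of 0.0368 to 0.290. The probe lies at chr4:136211203-136211262, minus strand (NM_001290753).

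Of the A-class ligands, *Efna1*, whose product ephrin-A1 is a main ligand of EphA2, had a higher mean in stomach organoids. Its levels were 11.85, 11.81 and 11.58 in esophageal organoids and 12.76, 12.68 and 11.87 in stomach organoids. The groups did not overlap, with the stomach array of mouse 4 only 0.02 above the highest esophageal array. The difference was -0.69 ± 0.25 (95% interval -1.27 to -0.11; adjusted p = 0.137 in limma). Without the stomach array of mouse 4, harvested a day earlier than the others, it was -0.97 with an adjusted p of 0.0107, and the alternatives ranged from 0.0107 to 0.551. The probe is at chr3:89075703-89075762, minus strand (NM_010107).

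*Efnb1*, a B-class ligand encoded on the X chromosome, had the smallest adjusted p of the ligands. The esophageal arrays read 14.43, 14.49 and 14.28 and the stomach arrays 13.07, 13.04 and 12.94. Replicates were tight in both tissues (SD 0.11 and 0.06), and within each mouse the esophageal culture exceeded the stomach culture by 1.34 to 1.46. The difference was 1.39 ± 0.14, or 2.61-fold (95% interval 1.06 to 1.71; adjusted p = 0.000480 in limma), and the adjusted p stayed at or below 0.00448 under all 15 alternatives. The probe lies at chrX:96343505-96343564, plus strand (NM_010110).

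*Efnb2*, the preferred ligand of EphB4, pointed to the stomach side without passing the test. Its bright probe read 9.12, 10.24 and 9.09 in esophageal organoids and 10.54, 10.03 and 11.39 in stomach organoids. The groups overlapped, since in mouse 2 the esophageal value was higher by 0.20. The difference was -1.17 ± 0.41 (95% interval -2.14 to -0.21; adjusted p = 0.127 in limma), and no alternative brought the adjusted p below 0.0537. The second probe was well above background on 0 of 6 arrays, with levels of 4.61 to 5.36 over the 6 arrays. The probes lie at chr8:8618177-8618236 and chr8:8620426-8620485, both on the minus strand (NM_010111).

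**Figure D3:**
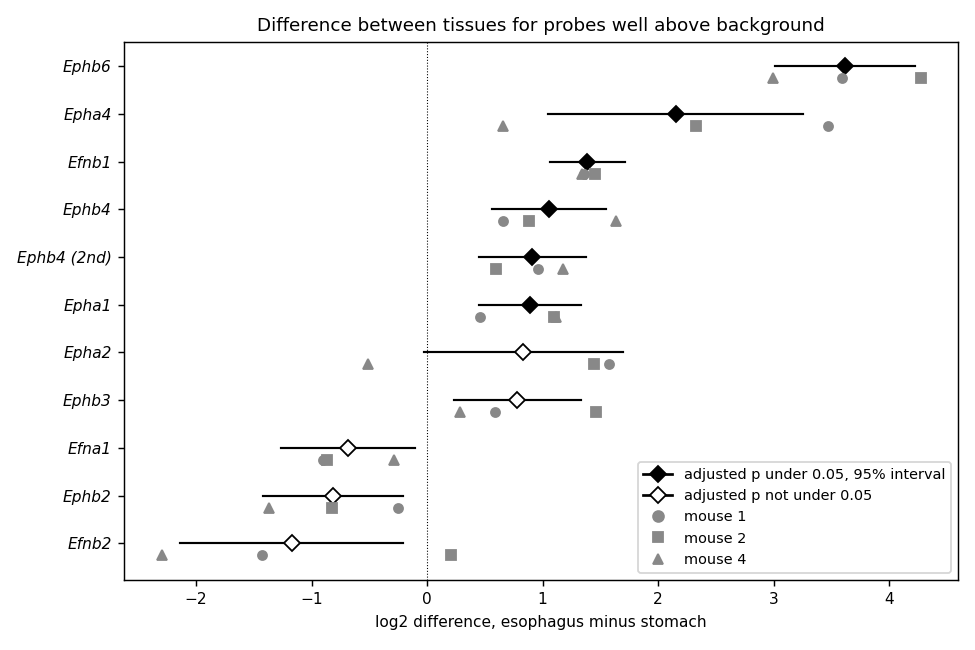
Log2 difference, esophagus minus stomach, of the 11 member probes well above background on 6 of 6 arrays, with the limma 95% interval (line), filled where the adjusted p was under 0.05, and the difference within each mouse (grey). *Epha2* and *Efnb2* are the probes whose mice disagree in sign, and the 3 mice lie closest together for *Efnb1*, at 1.34 to 1.46.

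Read mouse by mouse, 9 of the 11 bright member probes had the same sign in all 3 mice, the exceptions being *Epha2* in mouse 4 and *Efnb2* in mouse 2, as had 55.8% of the 21397 probes well above background on all 6 arrays and with a value on each. Both dim probes also kept 1 sign, which made 11 of 13, where 43.7% of all probes with a value on every array did. The stomach array of mouse 4 was the highest or lowest of the 3 stomach arrays for 8 of the 11 bright probes, as it was for 83.2% of the 21403 probes well above background on all 6 arrays and with a value on each stomach array, so nothing particular to the family is read from this count. For 4 of the 8, *Epha2*, *Epha4*, *Ephb3* and *Efna1*, it lay nearest the esophageal mean, differing from the mean of stomach arrays 1 and 2 by 0.906, 1.097, 0.605 and -0.847. It lay on that side for 10944 of the 17799 comparable probes in which it was the highest or lowest stomach array, and nothing particular to the family is read from the 4 either. For the other 4 it lay on the far side, as with *Efnb2*, where it was 1.096 above the mean of the other stomach arrays. This culture was harvested on day 7 rather than day 8, and the part of the day in these values was not tested.

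The family holds 12 further receptors and ephrins, measured by 18 probes. By their brightest probes, 3 of the 12 were higher on the esophageal side, where 7.15% of all gene names were called, and 0 on the stomach side, where 7.7% were, with no gene at an unadjusted p under 0.05 and 1.5-fold on the stomach side either (10.7% of all gene names). *Epha7*, a receptor best known from the nervous system, read 8.05, 7.22 and 6.62 in esophageal organoids and 5.38, 5.56 and 6.22 in stomach organoids, a difference of 1.58 ± 0.38 (adjusted p = 0.0321 in limma). This probe was well above background on 2 of 3 stomach arrays, and the other 2 probes of *Epha7* on at most 1 array. *Efna3* was higher by 0.73 ± 0.18 on its brighter probe (adjusted p = 0.0394) and by 0.85 ± 0.22 on the other (0.0477). *Epha5* was called on the probe with the 20-base T and G alternation (14.86, 15.32 and 14.78, against 13.91, 13.48 and 14.34; adjusted p = 0.0304), while its other 2 probes were well above background on no array. The count of 3 fell to 1 with the mouse as a block, in which *Efnb3* passed (adjusted p = 0.0490) and *Epha7* (0.0718), *Efna3* (0.0782) and *Epha5* (0.0731) did not. It fell to 1 without the esophageal array of mouse 1 and to 0 without the esophageal array of mouse 2, the stomach array of mouse 1 or the stomach array of mouse 2.

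The remaining members of the family were not called. *Efnb3*, a transmembrane ligand, differed by 0.77 ± 0.21 (adjusted p = 0.0525 in limma), with 6.998, 6.998 and 7.22 in esophageal organoids and 6.30, 5.93 and 6.67 in stomach organoids. *Efna2* differed by 0.38 ± 0.19 (adjusted p = 0.265), *Efna4* by -0.22 ± 0.17 (0.530) and *Efna5* by -0.44 ± 0.18 (0.194). The receptor probes of *Epha3*, *Epha6*, *Epha8* and *Ephb1* were well above background on no array, and the brightest *Epha10* probe was so on 1 array of each tissue. At least 1 probe was well above background throughout a tissue for all 8 ephrins and for the receptors *Epha1*, *Epha2*, *Epha4*, *Epha7*, *Ephb2*, *Ephb4* and *Ephb6*, besides *Ephb3* and *Epha5* through the probes with the long run.

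Genes that act with Eph receptors or ephrins inside the cell, or cut ephrins from the surface, moved in both directions. Of 40 such genes, 9 were higher in esophageal organoids, 6 were higher in stomach organoids and 25 were not called, with a median difference of -0.07, against the 7.15% and 7.7% of all gene names called in these directions. At the threshold of the study's methods the counts were 9 (3768 of 34298 gene names, or 11%) and 10 (10.7% of all gene names). *Vav3*, a guanine nucleotide exchange factor that binds activated Eph receptors, read 11.48, 10.70 and 10.53 in esophageal organoids and 6.93, 6.52 and 7.33 in stomach organoids (15.8-fold; adjusted p = 9.56e-05 in limma). *Tiam1*, an exchange factor for Rac, read 10.29, 10.78 and 10.35, against 6.64, 6.55 and 7.86 (10.98-fold; adjusted p = 0.000489). These 2 showed no overlap between tissues. *Grip1*, a PDZ scaffold that binds B-class ephrins, was 10.62 to 11.52 in esophageal organoids and not well above background in any stomach culture, which gives at least 76.6-fold (adjusted p = 5.97e-06), and at least 33.8-fold with a normexp offset of 50, the lowest bound among the intensity processings tried and with each array left out. *Abl2*, a cytoplasmic tyrosine kinase, was 3.09-fold higher (adjusted p = 0.0144), and 0.0682 without the stomach array of mouse 1 or of mouse 2, within a range of 0.000330 to 0.0682.

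On the stomach side, *Rgs3*, which in a PDZ form binds the tails of B-class ephrins and restrains G protein signaling, read 7.47, 7.43 and 8.69 in esophageal organoids and 11.53, 11.59 and 11.21 in stomach organoids (11.9-fold; adjusted p = 0.000327 in limma). *Pak1*, a kinase acting below Rac and Cdc42, was 4.07-fold higher in stomach organoids (adjusted p = 0.000223). *Inppl1*, the phosphatase SHIP2 that docks to EphA2, was 3.60-fold higher (adjusted p = 0.000429), and all 3 stomach arrays exceeded all 3 esophageal arrays for each of these genes. *Pik3r1*, a regulatory subunit of PI 3-kinase, was 3.08-fold higher (adjusted p = 0.0201); this rose to 0.0543 without the esophageal array of mouse 1, 0.0642 without that of mouse 2 and 0.0570 without the stomach array of mouse 2, within a range of 0.00843 to 0.0642. The metalloprotease gene *Adam10*, whose product cleaves ephrins, was also among the 6, with a difference of -0.95 (adjusted p = 0.00722 in limma); this gene was named after its value was seen. With 75th percentile scaling its difference was -0.67 with an adjusted p of 0.238, the highest of the alternatives, the lowest being 0.00484, and the 6 partners called on the stomach side fell to 4.

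**Figure D4:**
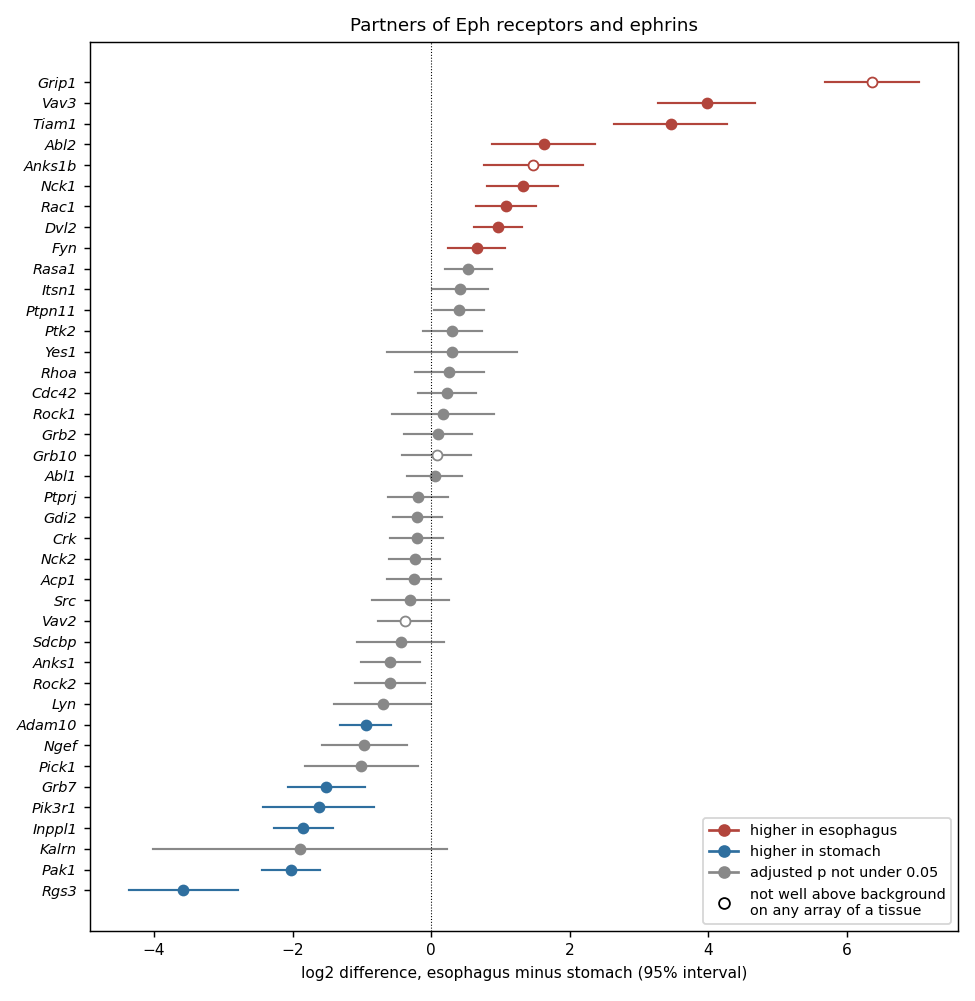
Log2 difference, esophagus minus stomach, with the limma 95% interval for the brightest probe of each of the 40 partner genes, colored where the adjusted p was under 0.05. Open points mark genes not well above background anywhere in a tissue, whose difference is no measured fold; 9 genes lie on the esophageal and 6 on the stomach side, with *Grip1* at the top and *Rgs3* at the bottom.

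Since *Ephb2* and *Ephb3* are known as WNT targets in the intestine and the stomach medium of the methods held WNT3A and R-spondin1, targets of the pathway were read beside them. Of 15 targets, 7 were higher in stomach organoids, where 7.7% of all gene names were, 0 were higher in esophageal organoids, where 7.15% were, and 8 were not called in limma. At the methods' threshold the counts were 9 (10.7% of all gene names) and 1 (3768 of 34298 gene names, or 11%). *Axin2*, a feedback inhibitor of the pathway, was higher in stomach organoids (adjusted p = 0.000639, at most 0.00817 under the alternatives). Its probe was well above background on 1 of 3 esophageal arrays, and its fitted fold of 5.89 ranged from 3.43 with a normexp offset of 50 to 15.7 with 75th percentile scaling. *Lgr5*, a receptor for R-spondins and a stem cell marker, was at least 41.0-fold higher and *Sp5*, a transcription factor, at least 72.5-fold higher, neither being well above background in any esophageal culture. With a normexp offset of 50, the lowest bounds among the intensity processings tried and with each array left out, these were at least 19.7-fold and at least 32.5-fold. Against these, *Ephb2* was 1.76-fold higher in stomach organoids without passing the test, and the *Ephb3* probe was 1.72-fold higher on the esophageal side, likewise without passing it. The *Ephb3* probe holds the 33-base T and G alternation, and the part of that run in its value was not tested.

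**Figure D5:**
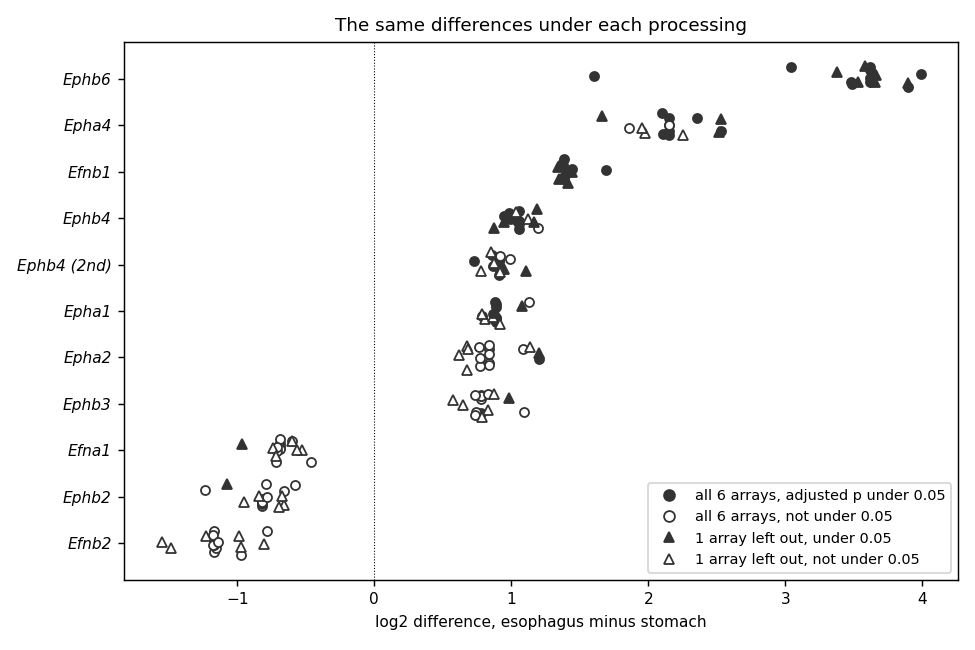
Log2 difference, esophagus minus stomach, of the 11 bright member probes under the reported processing and each alternative (circles, all 6 arrays; triangles, 1 array left out), filled where the adjusted p was under 0.05. No probe crosses 0, *Ephb6* and *Efnb1* are filled throughout, and the lowest *Ephb6* point, 1.60, is the average with its dim probe.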

How the data were processed

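Esophageal and stomach organoids of 3 mice were profiled on 6 single-color arrays. Agilent Feature Extraction 11.5.1.1 was used by the authors for the scans, and the deposited scanner files hold the intensity of each spot. The deposited log2 values had been corrected for background and quantile normalized by the authors, and normexp with an offset of 15 on median intensities followed by quantile normalization gave them back with a median absolute difference of 0.00433. Here, these log2 values were averaged per probe and compared with limma 3.58.1 (lmFit, eBayes) in R 4.3.3 over all 6 arrays, with Benjamini-Hochberg adjustment over 55681 probes and a call at adjusted p under 0.05. The study's methods state limma, a p under 0.05, taken here as unadjusted since they do not say, and 1.5-fold. The fit was tested on simulated data.

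A gene stands for its brightest probe. A probe with several spots counted as well above background on an array where any of its spots was. A probe not well above background anywhere in a tissue is given as a bound, the bright mean over the lowest well-above-background level of each dim array or the probe's own. Of non-control spots, 45.5% to 51.1% were well above background and none was saturated, so dim genes have only bounds, and the number of arrays limits precision. The labels number the mice 1, 2 and 4 in both tissues, and the number was taken as the animal; deviations from the tissue means correlated within a mouse with r = 0.025, 0.012 and -0.008, against -0.073 to 0.040 between numbers, and the mouse block was an alternative. Slide 2 held only the esophageal array of mouse 4, so the slide as a block equals leaving that array out. Members and lists were chosen with earlier results of these data known. The rule named all members, other family members well above background throughout a tissue, up to 4 called genes per direction with the largest change among other family members and among partners, and *Axin2*, *Lgr5*, *Sp5*, *Krt5* and *Krt8* as checks. Named outside it, after their values were seen, were *Adam10*, *Itsn1*, the family members *Epha3*, *Epha6*, *Epha8*, *Epha10* and *Ephb1*, and the other cell type markers. Alternatives were scanner intensities with normexp offsets of 16 and 50, 75th percentile scaling, outlier-marked spots kept, a filter on dim probes, averaged probes, trend and robust variances, both blocks, and each array left out.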

Additional observations from a re-analysis of the deposited data

How the results depend on the processing

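No member changed direction under any alternative, and *Ephb6* and *Efnb1* were called under all 15. With 75th percentile scaling, which moved the median difference of all probes from 0.02 to 0.19, 3 member probes and 3 member genes were called higher in esophageal organoids (adjusted p of 0.0680 for *Epha1* and 0.0513 and 0.135 for the *Ephb4* probes), and 2 dim probes were called higher in stomach organoids, those of *Ephb6* and *Efnb2* that are not well above background; the partners called there fell from 6 to 4. An offset of 50 raised the adjusted p of *Epha4* to 0.0685, and trend and robust variances lowered that of *Ephb3* to 0.0411. At the methods' threshold, 3 member probes and 3 member genes were called higher in stomach organoids, as were 10 of the partners in place of 6. With the mouse as a replicate block, 5 member probes were called, *Epha4* being lost, 1 further family member was called in place of 3, and no other member call changed. Leaving out each array in turn gave 2 to 6 member probes and 2 to 6 member genes on the esophageal side, 0 to 1 member probes and 0 to 1 member genes on the stomach side and 0 to 3 further family members. Over all probes the count of calls was 6770, and it ranged from 4091 without the stomach array of mouse 1 to 7415 without that of mouse 4. Leaving out probes with T and G or C and A runs of 12 or more bases, chosen after seeing the data, left 6 member probes called and lowered the further family members to 2. Averaging the probes of a gene gives no count of probes. The cause of these shifts was not tested.

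With 3 arrays a side, an exact permutation test cannot go below p = 0.1. Every call therefore rests on the limma model, with the distribution it assumes and the variance it shares across probes. Nothing shows that the cultures of a tissue were grown or hybridized independently beyond coming from different mice. Probes of genes with close copies were not checked for cross-hybridization, and bounds replace folds for genes at background.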

Other observations

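Probes with long runs of alternating bases stood apart beyond the Eph family, and this pattern was noticed in the data. The 23 probes with a T and G run of 16 to 19 bases were all higher on average in esophageal organoids, with a median difference of 1.06, and 60.9% were called there, against 5.83% of probes with runs of at most 7 bases. The 24 probes with a C and A run of 20 bases or more were all lower, with differences of -2.70 to -1.23, and 23 of them were called higher in stomach organoids. The brightest probes of *Itsn1*, a partner of EphB2 (28-base T and G run; 16.80, 17.09 and 16.85 in esophageal and 16.36, 16.38 and 16.76 in stomach organoids), and of *Itgam*, the called leukocyte marker (20-base C and A run; 11.18, 10.47 and 10.51, against 13.24, 13.83 and 12.96), hold such runs, like those of *Ephb3* and *Epha5*. The part of the runs in these values was not tested.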
